A study of Mus musculus with 2 samples.

Results

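The genome of the adult mouse dentate gyrus was cut into fixed 100 kb bins, and the bins described here had almost no methylation at CHG sites (H is A, C or T). A bin was counted when it was autosomal and held at least 300 CHG sites of 20 to 100 reads in replicate 2, and it was called CHG-poor when its CHG level was under 0.45%. The level of a bin is its methylated reads divided by all its reads. There were 1400 such bins among 23569 eligible bins, which is 5.94%, and the 22169 remaining eligible bins are called other bins below. The bins were chosen by the CHG reads of replicate 2, so their CHG level in that library is a description only.

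Dentate gyri were micro-dissected from male mice of the C57Black6 strain aged 8 to 10 weeks, with no treatment or mutant allele, and read by whole-genome bisulfite sequencing. The dentate gyrus is the part of the hippocampus that holds the granule neurons, and each level is an average over all its cells. There was 1 group of 2 libraries, replicate 1 and replicate 2, called biological replicates by the series' design text. Bisulfite turns unmethylated cytosine into a base read as thymine, and it does not separate methylcytosine from hydroxymethylcytosine. Replicate 2 carried the depth, with 18249464 CHG, 6165525 CHH and 2870859 CpG autosomal sites in the depth window, against 35448, 108910 and 6615 in replicate 1. The CHH table of replicate 2 began at 30 reads and the other tables at 20.

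In mammals most cytosine methylation lies at CpG dinucleotides and is kept by DNMT1 when cells divide. Methylation outside CpG, which is called CpH, is laid down by DNMT3A, builds up in postnatal neurons, and is found most at cytosines followed by adenine, above all CAC. In mouse neurons large domains with little CpH methylation have been described, and clusters of odorant and vomeronasal receptor genes are known examples of chromatin that stays closed outside the sensory epithelia. The measurements below give the level of all 3 contexts inside the CHG-poor bins, the blocks that these bins form, and the genes that start in them.

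The starts of 4 genes placed in the 10 longest blocks are printed to show what was read. Each run is the 250 bases upstream of a gene start, 5′ to 3′ along the gene, taken from RefSeq GRCm38.p6. Capitals mark cytosines with a deposited value in replicate 2. The tables list one strand only, so for genes on the minus strand the listed cytosines stand opposite a capital G. Positions are mm9 and come from matching each sequence to the positions of listed cytosines, since no mm9 genome was used here. Where enough cytosines matched, the protein-coding start with the most matched cytosines was taken from a block. The start of Olfr131, in the ninth block, was taken by the same rule and is not printed.
Olfr845 (chr9:19142652-19142901, plus strand): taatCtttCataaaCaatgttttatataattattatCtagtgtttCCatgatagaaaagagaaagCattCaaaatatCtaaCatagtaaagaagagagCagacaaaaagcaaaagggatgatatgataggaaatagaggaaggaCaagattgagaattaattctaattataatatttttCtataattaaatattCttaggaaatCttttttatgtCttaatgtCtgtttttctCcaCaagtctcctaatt
Skint1 (chr4:111678623-111678872, plus strand): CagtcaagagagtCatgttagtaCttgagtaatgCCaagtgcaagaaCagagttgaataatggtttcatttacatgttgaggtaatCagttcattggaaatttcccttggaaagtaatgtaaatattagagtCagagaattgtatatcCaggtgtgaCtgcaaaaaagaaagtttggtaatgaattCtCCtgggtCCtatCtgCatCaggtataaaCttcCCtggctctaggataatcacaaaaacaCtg
Klra7 (chr6:130181705-130181954, minus strand): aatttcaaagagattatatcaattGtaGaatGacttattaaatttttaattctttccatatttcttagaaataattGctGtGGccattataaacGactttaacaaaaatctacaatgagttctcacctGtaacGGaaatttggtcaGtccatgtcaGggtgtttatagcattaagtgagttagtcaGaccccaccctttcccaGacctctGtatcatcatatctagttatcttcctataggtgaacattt
Zbtb45 (chr7:13595201-13595450, minus strand): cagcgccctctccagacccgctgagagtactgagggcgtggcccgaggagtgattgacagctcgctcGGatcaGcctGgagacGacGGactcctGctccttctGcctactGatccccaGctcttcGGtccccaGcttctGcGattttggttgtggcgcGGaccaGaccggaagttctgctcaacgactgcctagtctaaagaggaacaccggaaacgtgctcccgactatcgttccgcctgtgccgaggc

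Olfr845 encodes an odorant receptor, and 4 of 608 CHH reads in its window were methylated (0.658%, exact 95% interval 0.180% to 1.68%). The window holds 19 listed cytosines and no listed CpG. In the window of Skint1, an immunoglobulin-superfamily gene of skin and thymus needed for a class of gamma delta T cells in mice, 1 of 350 CHH reads was methylated (0.286%, 0.00723% to 1.58%). Klra7, a natural killer cell receptor gene, had 1 methylated read among 192 CHH reads (0.521%, 0.0132% to 2.87%), while 51 of 58 reads at its 2 listed CpG sites were methylated (87.9%). The window of Zbtb45, a BTB-domain zinc finger gene, holds no listed CHH site. None of its 130 reads at 6 CpG sites was methylated, which allows a level of up to 2.31%. CHG reads took part in choosing the bins, and none was methylated among 62 in Olfr845, 318 in Skint1, 200 in Klra7 and 287 in Zbtb45, which allows levels of up to 4.84%, 0.943%, 1.5% and 1.05%. These limits and all intervals from counts cover counting error only, since several PCR reads can stem from 1 molecule.

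The CHG level of the CHG-poor bins in replicate 2 was 0.394%, against 0.807% in the other bins. Bin by bin it ran from 0.152% over a median of 0.402% to 0.45%, and in the other bins from 0.45% over 0.753% to 3.36%. Mitochondrial cytosines, taken as unmethylated, gave a level of 0.368% at CpH sites in the same library (exact 95% interval 0.365% to 0.370%). Mitochondrial CHG sites alone gave 0.377% (0.369% to 0.384%). The pooled CHG level of the CHG-poor bins, with a standard error of 0.00122 over bins, was slightly above both. The exact interval of 1363 of the 1400 CHG-poor bins held the mitochondrial CpH level, while 14 intervals lay above it and 23 below. A CHG-poor bin had a median of 688 CHG sites and another bin 788, and mean depth per site was alike, with medians of 23.8 reads in both.

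The threshold does not mark a gap. The 5 bins just under it had CHG levels of 0.4495% to 0.45% and the 5 just over it 0.4501% to 0.4505%, and their intervals overlapped widely. Only 237 of the 1400 bins had an interval that ended under 0.45%. The 5 lowest CHG levels were 0.152% at chr7:13200000-13299999, 0.22% at chr7:15100000-15199999, 0.222% at chr7:34100000-34199999, 0.224% at chr11:86900000-86999999 and 0.239% at chr7:49300000-49399999. Of these, 4 lay on chromosome 7, in blocks of 4 to 9 bins, and the one on chromosome 11 stood alone. The lowest rested on 11 methylated reads among 7246 (exact 95% interval 0.0758% to 0.271%).

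CHH sites, which the rule did not use, were also low in the CHG-poor bins. In replicate 2 the CHH level was 0.466% ± 0.00556 in CHG-poor bins and 0.924% ± 0.00378 in other bins (SE over bins, n = 1400 and 22169). The difference was -0.458 points with a standard error of 0.00672 (95% interval -0.471 to -0.445 points). Intervals and tests of pooled differences rest on the spread between bins of 1 library, not on animals. CHG and CHH were read from the same library and often from the same reads. The CHG-poor bins were lower on each of the 19 autosomes, by 0.319 points on chromosome 3 and up to 0.517 points on chromosome 19. Of the 1164 CHG-poor bins with at least 100 CHH sites, 1132 lay under the median of the other bins, which was 0.860%, and 11 reached 1% or more.

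Sites with strong CHH or CHG methylation were sparse in CHG-poor bins. A level of 20% or more was read at 424 of 420805 CHH sites in CHG-poor bins (0.101%), against 35190 of 5728100 in other bins (0.614%). Among CHG sites, whose level the rule used, 0.0825% reached 20% in CHG-poor bins and 0.469% in other bins. CHH sites with at least 1 methylated read made up 9.84% in CHG-poor bins and 13.6% in other bins.

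Single bins were then tested against all other bins, with the spread between sites as error and Benjamini-Hochberg adjustment over all 20328 bins with enough CHH sites. CHH was called lower in 144 of 1164 CHG-poor bins (12.4%), where the share over all bins tested was 1.19%. None was called higher, against 1.92% of all bins. At an unadjusted p under 0.05, 658 of 1164 CHG-poor bins (56.5%) were lower and 1 was higher, with 9.58% lower and 9.11% higher over all bins. Most single bins therefore did not pass the adjusted test, although the pooled difference was large. The error in this test has a floor, described with the processing, which misses many real differences in single bins.

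**Figure D1:**
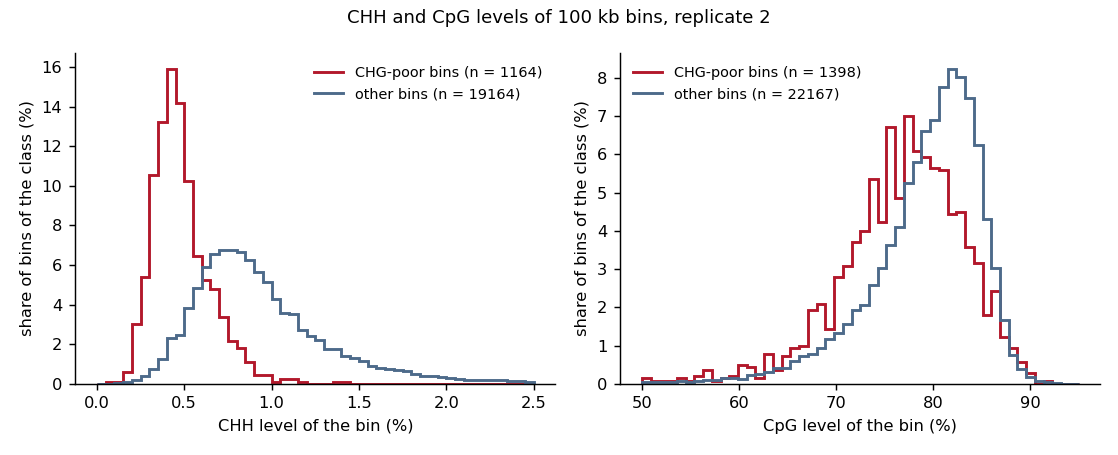
Distribution of the CHH level (left) and the CpG level (right) over 100 kb bins in replicate 2, as a share of the bins of each class. CHG-poor bins peak near 0.45% CHH, with a median of 0.452%, and other bins have a median of 0.860%, while the CpG levels of both classes overlap over most of their range. Bins beyond the axes are not drawn.

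CHH sites were split by the cytosines listed next to them, which stands in for sequence. A CHH site followed directly by a listed cytosine is a CCN trinucleotide, so this class holds no CA sites. In the class with a cytosine listed at the second next position only, the middle base is not a listed cytosine, and this class was the most methylated one. The third class had a listed cytosine at neither position. A cytosine under the depth minimum is not listed, so a class also holds sites whose neighbour was too shallow. In CHG-poor and other bins the classes took similar shares of CHH sites, 23.4% and 21.8% for the first, and 16.6% and 16.2% for the second, with the rest in the third.

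The 2 kinds of bins differed most where the second next position was listed. In replicate 2 that class was at 0.666% ± 0.0183 in CHG-poor bins and 2.18% ± 0.0143 in other bins (SE over bins), a difference of -1.52 points with a standard error of 0.0232. The class with neither listed was at 0.464% in CHG-poor bins and 0.791% in other bins, a difference of -0.327 points with a standard error of 0.00552. The class with the next position listed was at 0.327% in CHG-poor bins and 0.358% in other bins. This difference of -0.0307 points (standard error 0.0051) was small, with a 95% interval of -0.0407 to -0.0207 points. Both of those values lay under the mitochondrial level of 0.368%, so in replicate 2 the low class was near that level in both kinds of bins.

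The second next cytosine can itself be of any context. Where it was a CHH cytosine, the level was 0.719% in CHG-poor bins and 2.60% in other bins. Where it was a CHG cytosine, the levels were 0.527% in CHG-poor bins and 1.26% in other bins. With a CpG cytosine there, only 2261 sites of CHG-poor bins were left, at 0.541%, against 0.804% in other bins. A CHH neighbour went with the highest level in both kinds of bins. In CHG-poor bins the CpG and CHG neighbours differed by less than the standard error of the CpG value (0.0458), while in other bins CHG was above CpG. In each of the 8 pooled CHH and CpG comparisons of replicate 2 the CHG-poor bins were lower (adjusted p at most 4.41e-08, n = 910 CHG-poor bins or more).

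A residue of CHH methylation remained in CHG-poor bins. Their second-next-listed class stood 0.339 points over their own low class, and in other bins the gap was 1.82 points. The level of this class was ordered as the CHG level of the bins. In the 253 bins with a CHG level under 0.35% the class was at 0.569%, in the 422 bins of 0.35% to 0.4% it was at 0.615%, and in the 725 bins of 0.4% to 0.45% at 0.710%. Above the threshold it was 0.964% in the 1085 bins up to 0.5%, 1.28% in the 1447 bins up to 0.55%, and 3.77% in the 3803 bins of 1% or more. The low class was at 0.306% in the lowest of these ranges and 0.396% in the highest. CHH thus followed the CHG level without a step at 0.45%.

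**Figure D2:**
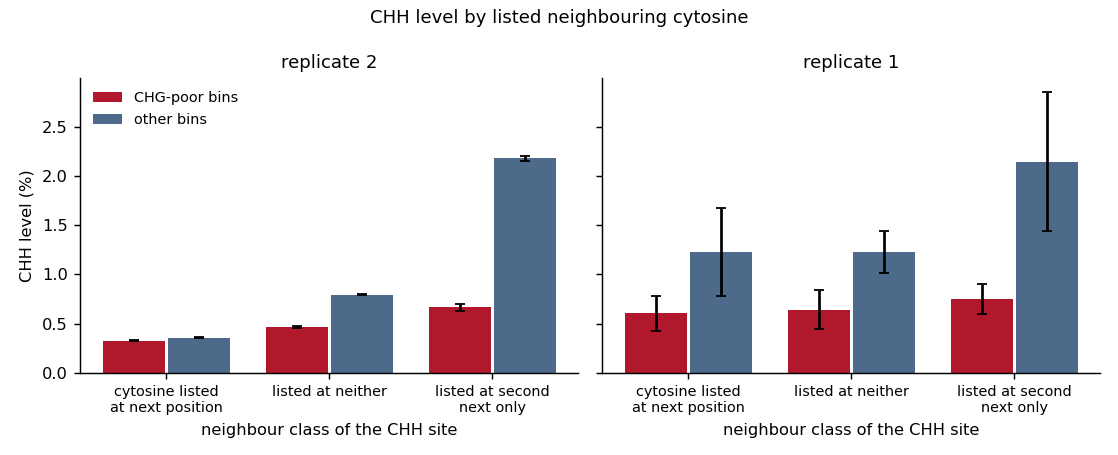
CHH level by neighbour class in CHG-poor and other bins, for replicate 2 (left) and replicate 1 (right). Bars are read-weighted levels and error bars are 95% intervals from the spread between bins. In replicate 2 the first class is at 0.327% in CHG-poor bins and 0.358% in other bins and the last class at 0.666% and 2.18%, while in replicate 1 all 3 classes are higher in other bins.

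CpG methylation was slightly lower in CHG-poor bins than in the other bins pooled, and stayed high. The other bins nearest to them in CHG level had the same CpG level. It was 77.0% in replicate 2 bins of 0.45% to 0.5% CHG and 77.1% in those of 0.4% to 0.45%. In replicate 2 the CpG level was 76.7% ± 0.188 in CHG-poor bins and 79.2% ± 0.0426 in other bins (SE over bins), a difference of -2.41 points with a standard error of 0.193. It was lower in CHG-poor bins on 18 of 19 autosomes. The exception was chromosome 15, with 22 CHG-poor bins and a difference of 1.22 points, and the largest fall was 6.61 points on chromosome 18, with 27 such bins. The difference lay in intermediate sites. CpG sites of 20% to 80% made up 36.0% of 131184 sites in CHG-poor bins and 29.8% of 2730184 in other bins. Sites over 80% made up 58.9% in CHG-poor bins and 65.1% in other bins. Sites under 20% were at almost the same share, 5.18% in CHG-poor bins and 5.09% in other bins.

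Tested bin by bin, CpG was lower in 259 of 1398 CHG-poor bins (18.5%) after adjustment, where 11.5% of all 23565 bins tested were. It was higher in 94 of the CHG-poor bins (6.72%), where 12.6% of all bins were. CHG-poor bins were thus called in both directions, and the CpG levels of single bins ran from 40.8% to 92.2%. The CpG difference differed with the density of CpG sites. Within quintiles of density, CHG-poor minus other bins was -4.68 points in the sparsest, -3.18, -1.02 and -2.94 in the next ones, and -4.06 in the densest.

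CHG-poor bins tended to lie side by side. Of the 1400 bins, 749 (53.5%) had a CHG-poor bin directly next to them, while 6.77% of the other bins did and 5.94% of all bins were CHG-poor. The 53.5% and 6.77% count a neighbour on either side, while the 5.94% counts each bin alone and is not their expected value. The bins formed 895 blocks of directly adjacent bins. Among these, 651 were single bins, 129 were pairs, 115 had 3 bins or more and 32 had 5 or more. The 115 longer blocks held 491 bins, 35.1% of all CHG-poor bins, over 49100 kb, and the longest had 13 bins. With 1 bin between them allowed, 65.5% of the CHG-poor bins had another within reach, a share that was not taken for the other bins.

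Longer blocks were lower in CHH, which did not enter their choice. The CHH level was 0.516% ± 0.00998 in single bins, 0.439% ± 0.012 in pairs, 0.437% ± 0.00776 in blocks of 3 or 4 bins and 0.413% ± 0.00665 in blocks of 5 or more (SE over bins). In the second-next-listed class the values were 0.829%, 0.588%, 0.566% and 0.476%. The CHG level, which chose the bins, was 0.405%, 0.394%, 0.384% and 0.377% in the same classes. Other bins that touched a CHG-poor bin were at 0.597% ± 0.0127 CHH, and the remaining other bins at 0.949% ± 0.00324. Single CHG-poor bins thus had more CHH methylation than bins in blocks, and pairs and blocks of 3 or 4 bins did not differ beyond their errors. CpG levels were 77.0%, 77.9%, 76.3% and 74.8% from single bins to the longest blocks, and the low class stayed at 0.315% to 0.343%. Other bins that touched a CHG-poor bin were at 77.2% CpG, between single bins and pairs, and the remaining other bins at 79.3%.

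Across the 115 blocks of 3 bins or more the CHH level ran from 0.228% over a median of 0.415% to 0.796%, and 101 were under 0.5%. Their CpG level ran from 63.8% over 75.8% to 86.8%. Each autosome held at least 1 such block, and 41 of the 115 lay on chromosomes 7 and 17. The 10 longest blocks held 90 bins, and their CHG levels lay between 0.364% and 0.401%, their CHH levels between 0.380% and 0.457% and their CpG levels between 71.8% and 76.6%.

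The longest block, chr9:18700000-19999999, held 13 bins and 4374 CHH sites, at 0.424% CHH (exact 95% interval 0.391% to 0.458%). It was bounded by bins at 0.479% and 0.465% CHG, just over the threshold. The starts of Olfr835, Olfr845 and Olfr860 were placed in it, and 24 more Olfr entries, pseudogenes included, stand between those in RefSeq's gene order. The second block, chr17:18100000-19299999, had 12 bins and 0.435% CHH (0.402% to 0.470%). It held the start of Fpr3, a formyl peptide receptor gene of the immune system, and those of the vomeronasal receptor genes Vmn2r93 and Vmn2r96. Between placed genes stood 6 more Vmn genes, here with pseudogenes left out. Odorant and vomeronasal receptor genes were not placed in every long block.

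The third block was chr6:130300000-131299999, with 10 bins and 0.396% CHH. The bin before it was at 1.01% CHG and 1.52% CHH, one of the sharpest borders among the 10. On the far side of that bin lay the eighth block, chr6:129500000-130199999, with 7 bins and 0.380% CHH. It held the starts of Klrc3 and Klra7, lectin-like receptor genes of natural killer cells. Blocks 4 and 5 lay on chromosome 7, with 9 bins each. In chr7:18400000-19299999, at 0.408% CHH, the start of Mill1 was placed, an MHC class I-like gene. In chr7:12700000-13599999, at 0.437% CHH, the starts of Vmn1r81, Vmn1r83, Vmn2r56 and Zbtb45 were placed.

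The sixth block, chr6:133000000-133799999, had 8 bins and the highest CHH level of the 10, 0.457%. The seventh, chr4:111600000-112399999, also had 8 bins, at 0.382% CHH, and held the starts of Skint1 and Skint7. The ninth, chr17:38100000-38799999, had 7 bins at 0.392% CHH and the start of Olfr131. No gene start was placed in the tenth, chr4:113300000-113999999, which had 7 bins at 0.404% CHH. CpG was at 71.8% there, the lowest of the 10.

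CHG-poor bins were unevenly spread over the chromosomes. Chromosome 7 had the highest share, 221 of 1324 eligible bins (16.7%), followed by chromosome 17 with 114 of 901 (12.7%) and chromosome 19 with 47 of 579 (8.12%). Chromosome 15 had the lowest, 22 of 1002 (2.20%). Chromosome 7 also held 136 of the 491 bins in blocks of 3 or more. Cut into 5 equal parts from the first to the last listed bin, chromosomes had 9.27% CHG-poor bins in the first part and 4.57% to 5.51% in the others. The first part of a mouse chromosome is its centromeric end. In the first 2 Mb of listed bins the share was 17.9% (64 of 357), and in the last 2 Mb 9.74% (37 of 380).

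**Figure D3:**
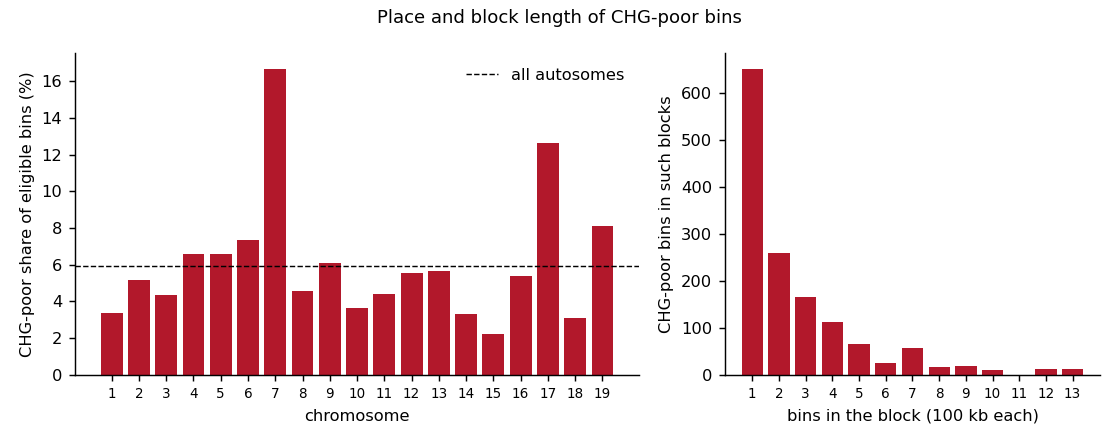
CHG-poor share of eligible bins for each autosome (left; the dashed line is the share over all autosomes, 5.94%) and the number of CHG-poor bins by the length of their block (right). Chromosome 7 stands at 16.7% and chromosome 15 at 2.20%, and single bins make up 651 of the 1400 bins.

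The CHG-poor bins were concentrated in few windows. Of 504 windows of 5 Mb, 52 held 50% of them and 156 held none. The window with the most, chr7:10000000-14999999, had 33 CHG-poor bins among 40 eligible ones (82.5%). It was followed by chr6:130000000-134999999 with 30 of 50 and chr17:20000000-24999999 with 26 of 50. CHG-poor bins had fewer CpG sites, with a median CpG density (the share of listed cytosines that are CpG) of 8.53%, against 10.8% in other bins. The CHG-poor share was 11.2% in the sparsest quintile of bins by that density and 2.99% in the densest. Within each of the 5 quintiles CHH was lower in CHG-poor bins, by 0.346 points in the sparsest and 0.521 points in the densest.

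The edges of the blocks were gradual in CHH. Over the 210 edges of blocks with at least 3 bins, the last 100 kb inside had a CHH level of 0.435% ± 0.0105 (SE over edges). The next 5 windows of 100 kb outward were at 0.477%, 0.497%, 0.539%, 0.574% and 0.578%. These flanks stayed well under the 0.924% of all other bins even at 400 to 500 kb. The second-next-listed class was at 0.567% ± 0.0224 inside, and outward at 0.667%, 0.799%, 0.910%, 1.06% and 1.16% ± 0.0888. The low class was 0.332% inside and 0.324% to 0.353% outside. CHG, which set the edges, was at 0.380% inside and 0.537% in the first window outside, then at 0.490%, 0.518%, 0.545% and 0.577%. Some flanking bins belong to further CHG-poor blocks. CpG was at 76.3% inside and between 75.2% and 77.1% outside, with standard errors of 0.376 to 0.928 points, and showed no step at the edge.

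Single edges could hardly be told from other pairs of neighbouring bins. CHH was lower inside at 760 of 1190 edges (63.9%). Among all 18906 pairs of adjacent bins it was lower in the bin with less CHG in 61.2%. By the test of adjacent bins with Benjamini-Hochberg adjustment, 1 of 1190 edges passed (0.084%), and 0.1% of all pairs did. At an unadjusted p under 0.05 the shares were 5.13% of edges and 6.74% of all pairs. Of the 178 edges of blocks with at least 3 bins that could be tested, 114 were lower inside, 5 at an unadjusted p under 0.05, and 0 after adjustment. The median difference at these edges was -0.0513 points. The edge that passed bounds a single bin, chr12:86400000-86499999, with 0.567% CHH against 7.79% in the next bin and was singled out after its values were seen. The bins that flanked the longer blocks had a median CHG level of 0.508%. Of the 210 flanking bins, 178 lay between 0.45% and 0.6%, and 10 were over the median of the other bins.

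**Figure D4:**
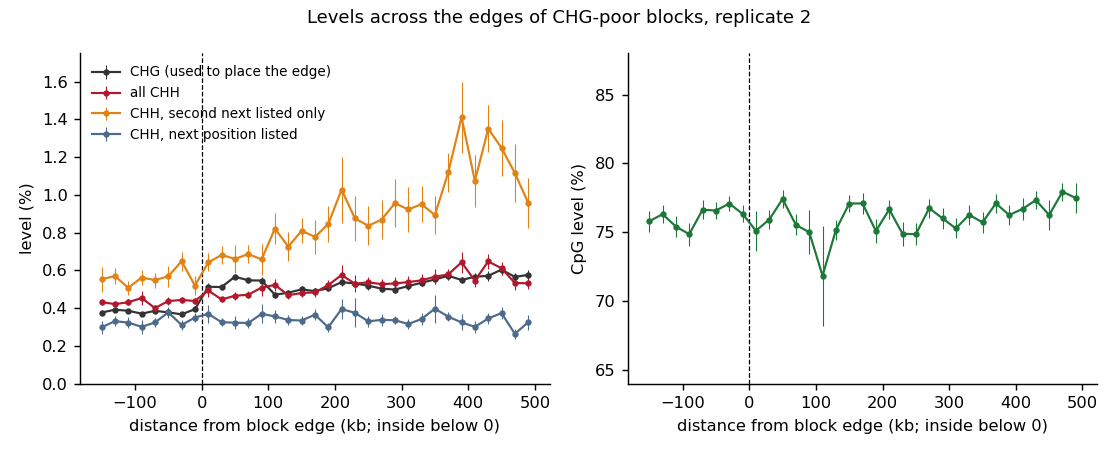
Levels in steps of 20 kb from 150 kb inside to 490 kb outside the edges of CHG-poor blocks of at least 3 bins, in replicate 2 (210 edges, fewer at the innermost step). Points are read-weighted levels and bars standard errors over edges. CHG steps up at the edge that it defines, the second-next-listed CHH class climbs outward to 1.16% in the last 100 kb, and the CpG level (right, on an axis that does not start at 0) shows no step.

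A few CHG-poor bins were not poor in CHH. The highest CHH level was 4.45% at chr2:179800000-179899999, a single bin at 0.417% CHG, and the next were 1.43% at chr1:36800000-36899999 and 1.37% at chr2:111200000-111299999. The lowest were 0.0828% at chr5:131500000-131599999, 0.121% at chr7:11300000-11399999 and 0.153% at chr1:119600000-119699999, which were chosen after their values were seen. These 6 bins had 103 to 475 CHH sites each.

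Gene starts were placed on mm9 by the pattern of listed cytosines, which located 2277 of 25747 RefSeq genes searched. Placement needs a well-covered and distinctive promoter, so the gene lists are samples of each family, and near-identical family members make single receptor placements uncertain. Of 2252 genes placed in eligible bins, 271 (12.0%) started in CHG-poor bins, in 218 different bins. Olfactory receptor genes, which encode the odorant receptors of the nose, had 76 of 181 placed starts in CHG-poor bins (42.0%). Vomeronasal receptor genes, which encode pheromone receptors, had 21 of 36 for type 1 (58.3%) and 9 of 16 for type 2 (56.3%). Without these receptors the share was 165 of 2019 (8.17%). Among placed protein-coding genes, receptor genes included, it was higher, at 227 of 1167 (19.5%). Further genes were not placed themselves but stand, in RefSeq's order, between placed genes with only CHG-poor or only other bins from one start to the next. This favours other bins, since CHG-poor blocks are short, and it put 510 of 20528 genes (2.48%) in CHG-poor blocks. By it, 138 of 424 olfactory receptor genes (32.5%), 52 of 76 type 1 and 9 of 10 type 2 vomeronasal receptor genes lay in CHG-poor blocks.

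Receptor genes made up more of the placed genes in longer blocks. They were 22 of 99 placed genes in single bins (22.2%), 31 of 69 in pairs (44.9%), 28 of 56 in blocks of 3 or 4 bins and 25 of 47 in blocks of 5 or more (53.2%). Outside CHG-poor bins they were 127 of 1981 placed genes (6.41%). Of the 115 blocks of 3 bins or more, 54 held a placed gene and 23 a placed receptor gene. Receptor genes outside the CHG-poor bins also lay in bins with little CHG methylation. The 94 bins that held them had a median CHG level of 0.513%, and 84 were under the median of the other bins.

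Among the other gene lists, Zfp zinc finger genes had 13 of 25 placed starts in CHG-poor bins (52.0%). Between placed genes, however, 15 of 103 (14.6%) lay in CHG-poor blocks. Many of them encode KRAB zinc finger proteins, which silence transposable elements, and sit in tandem clusters. Serpins, a family of protease inhibitors, had 3 of 12 placed and 0 of 13 between, and the detoxifying cytochromes P450 had 1 of 4 and 0 of 37. The antimicrobial defensins had 2 of 3 placed and 1 of 15 between, and the Mas-related receptors of sensory neurons 2 of 3 and 3 of 3. Histone genes had 0 of 15 placed and 1 of 82 between, keratins and keratin-associated proteins 0 of 7 and 1 of 81, and the chosen neuron genes 0 of 1 and 0 of 5. No immunoglobulin or T cell receptor segment, protocadherin or Hox gene was placed in an eligible bin, and between placed genes they had 14 of 80, 0 of 5 and 0 of 34. These lists hold 633, 68 and 43 autosomal RefSeq genes. Most of the segments and protocadherins were thus not located, and their counts do not describe the whole families. In lists added after the data were seen, bitter taste receptors had 5 of 9 placed and 2 of 5 between, killer cell lectin-like receptors 2 of 3 and 13 of 20, and C-type lectins 0 of 2 and 0 of 17. Skint genes had 2 of 3 placed. Small counts are values only, and no list was tested.

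**Figure D5:**
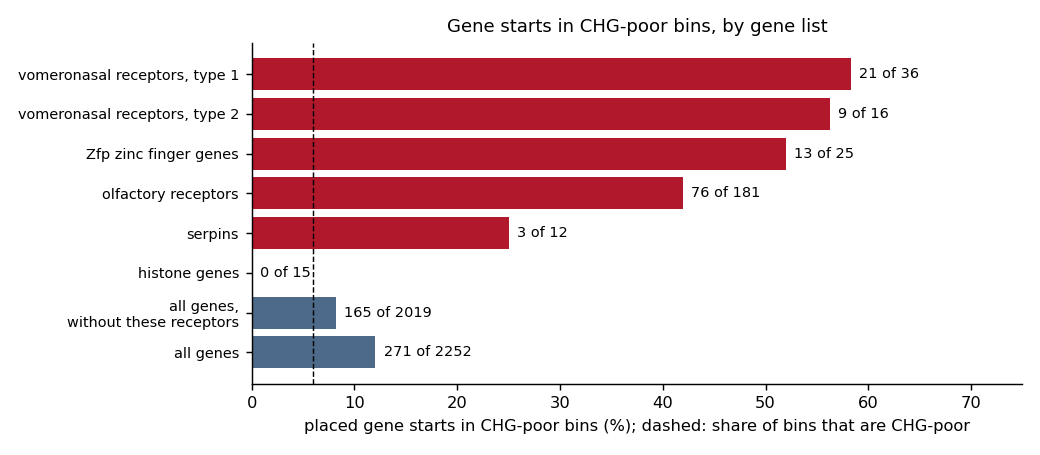
Share of placed gene starts that fell in CHG-poor bins, for gene lists with at least 12 placed genes (red) and for all placed genes (blue). Labels give the genes in CHG-poor bins of those placed, and the dashed line is the CHG-poor share of all eligible bins, 5.94%. Vomeronasal and olfactory receptors and Zfp genes lie at 42.0% to 58.3%, and all genes without these receptors at 8.17%. Placed protein-coding genes, which are not drawn, were at 19.5%.

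Promoters in CHG-poor bins were also poor in CpH methylation. Over the 300 bases from 250 upstream of the start to 50 after it, the CHH level was 0.482% ± 0.0440 in CHG-poor bins and 0.787% ± 0.0421 in other bins (SE over genes). The difference was -0.305 points with a standard error of 0.0609 (adjusted p = 1.68e-06 over 6 comparisons, n = 173 and 1024 genes). These sites are part of the bins compared above. CHG, used by the rule, was at 0.315% in CHG-poor bins and 0.724% in other bins. CpG was at 43.0% ± 4.02 in CHG-poor bins and 41.4% ± 1.21 in other bins, a difference of 1.62 points with a standard error of 4.20, so no difference was detectable. Without olfactory and vomeronasal receptors the CpG difference was -3.94 points with a standard error of 4.70, and the CHH difference -0.390 points with a standard error of 0.0677. At promoters with under 5 CpG the CpG difference was 4.64 points with a standard error of 2.29 (adjusted p = 0.0646, n = 110 and 743 genes), and the CHH difference -0.262 points with a standard error of 0.0676. The promoters in CHG-poor bins had a median of 2 CpG dinucleotides, against 4 in other bins, and 11.1% of those in CHG-poor bins had 15 or more, against 12.8% in other bins.

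Replicate 1 gave a check in a library that the rule did not use, at far fewer sites and limited by its low CHH class (below). With the bins chosen in replicate 2, its CHG level was 0.564% ± 0.0213 in CHG-poor bins and 0.940% ± 0.0714 in other bins (SE over bins). The difference was -0.375 points with a standard error of 0.0745 (adjusted p = 2.82e-06 over 6 comparisons in this library, n = 490 and 7792 bins). Its CHH level was 0.653% ± 0.0901 in CHG-poor bins and 1.41% ± 0.171 in other bins, a difference of -0.752 points with a standard error of 0.193 (adjusted p = 0.000204, n = 655 and 10569 bins). The median CHG-poor bin had 2 CHG sites and 4 CHH sites in this library. Among bins with at least 20 CHH sites, the median level was 0.45% in 67 CHG-poor bins and 0.888% in 408 other bins.

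In replicate 1 the class with the next position listed differed as well. It was at 0.603% in CHG-poor bins and 1.23% in other bins, a difference of -0.623 points with a standard error of 0.246 (adjusted p = 0.0134, n = 312 and 4514 bins). The second-next-listed class was at 0.750% in CHG-poor bins and 2.15% in other bins, and the class with neither listed at 0.641% and 1.23%. The low class of replicate 1 is far above its mitochondrial CpH level of 0.418%, and its part in the CHG and CHH differences of this library was not tested. All CHH sites together stood 0.0494 points over the low class in CHG-poor bins and 0.178 points over it in other bins. For CHG the gap to the low class was -0.039 points in CHG-poor bins and -0.287 points in other bins. The second-next-listed class stood 0.147 and 0.921 points over the low class, and the class with neither listed 0.0378 and 0.00229 points. Relative to the low class, CHG and the class with neither listed were thus not lower in CHG-poor bins of replicate 1. In replicate 2 the gaps of all CHH sites were 0.139 and 0.566 points, and those of CHG 0.0672 and 0.449 points. A single bin, chr8:19900000-19999999, held 37.7% of the CHG reads and 36.1% of the CHH reads of CHG-poor bins. Without it the differences were -0.384 points for CHG and -0.694 points for CHH. The CpG level of replicate 1 was 69.1% ± 3.54 in CHG-poor bins and 67.2% ± 5.33 in other bins, a difference of 1.98 points with a 95% interval of -10.6 to 14.5, so its direction was not resolved. Without the chromosome 8 bin that CpG difference was -0.193 points.

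Over both libraries the CHH difference between CHG-poor and other bins averaged -0.605 points ± 0.208 (SD, n = 2), from -0.752 points in replicate 1 and -0.458 points in replicate 2. At a threshold of 0.40% this mean was -0.359 points, and the difference of replicate 1 was -0.254 points with a standard error of 0.461 and no longer passed the test. With no upper depth limit the difference of replicate 1 was 3.26 points with a standard error of 2.45, and 1 bin of chromosome 12 held 92.0% of the methylated reads of CHG-poor bins. In replicate 1, blocks of 3 bins or more could not be told from shorter ones. The CHG level was 0.555% ± 0.0209 in them and 0.578% ± 0.0463 in blocks of 1 or 2 bins, and the CHH level 0.686% ± 0.154 in them and 0.607% ± 0.0682 in the shorter blocks (SE over bins). The CHH level of the longer blocks was 0.556% without the bin chr2:111200000-111299999 and 0.900% without chr8:19900000-19999999, so it depended on single bins. Other bins next to a CHG-poor bin were at 0.776% CHG and 0.830% CHH, and the remaining ones at 1.05% and 1.78%.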

How the data were processed

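The 2 dentate gyrus libraries were analysed. The authors deposited, per library and context, counts of methylated and unmethylated reads per cytosine of 1 strand class, and the level as a percent of reads, which was recomputed from the counts. Reads were handled with Bismark 0.7.5 and build mm9, per the submitters' processing notes. For trimming, duplicate removal and other filters, sources used here give no method, and lambda reads were not analysed here.

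Levels are summed methylated over summed total reads at sites of 20 to 100 reads (30 to 100 for CHH in replicate 2). Pooled differences used a ratio estimate with standard errors from the spread between bins and a two-sided normal test. Neighbouring bins are not independent, so these errors may be too small. Bins with at least 100 CHH or 30 CpG sites, and adjacent pairs, were tested with the spread between sites and Benjamini-Hochberg adjustment at 0.05. On simulated data the planned version of this test made too many false calls. The variance was therefore given a floor, the binomial variance times the dispersion over all sites (4.03 for CHH, 8.65 for CpG), which misses many real differences in single bins.

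Gene starts were placed by matching RefSeq GRCm38.p6 promoters to listed cytosine positions, with at least 9 matched sites. A first search over each whole chromosome, with at least 10 matched sites, kept RefSeq's gene order in 1888 of 1979 candidates. The final search ran only between starts of the first that kept this order. The 97.9% of its candidates in gene order were therefore largely set by the search and do not check the placement. This method and its minimum of 9 sites, raised from a lower one that placed less reliably, were chosen after the data were seen. So were the classes of block length and CHG level, the 5 Mb windows and the promoter CpG classes. Named regions were the 10 longest blocks, the 5 lowest bins, the 5 on each side of the threshold, the 3 highest by CHH, and edges past the test at blocks of at least 3 bins, of which there were none. The members and lists were chosen with earlier results of these data known. Intervals are exact Clopper-Pearson intervals at 95%. Tools were Python 3.11.15, numpy 2.4.6, pandas 2.3.3, scipy 1.17.1, numba 0.67.0 and matplotlib 3.10.9. Alternatives changed the threshold, bin size and offset, site minimum, depth limits, weighting and test.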

Additional observations from a re-analysis of the deposited data

Results flagged for a closer look

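Sites over 100 reads were left out of the main levels above, and most of their methylated CHH reads in CHG-poor bins came from 1 bin. In replicate 2, 9453 such CHH sites in CHG-poor bins were at 3.58% (exact 95% interval 3.55% to 3.60%), against 1.04% at 27006 such sites in other bins. Both lie over the limit that a count of 0 allows. Mitochondrial CHH sites, taken as unmethylated, were at 0.366% in the same library and lie over such a limit too. Passing it therefore does not show methylation. Of the methylated reads at these sites in CHG-poor bins, 91.5% came from 20 sites of one bin, chr12:3100000-3199999, where the level was 9.72%. Without that bin the level was 0.458%. At CHG sites over 100 reads, 2859 sites of CHG-poor bins were at 0.453% (0.438% to 0.468%), against 0.690% at 8281 sites in other bins. Here the bin chr8:19900000-19999999 held 39.3% of the reads, and without it the level was 0.444%. Whether reads at such depth come from 1 genomic position was not tested.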

How the results depend on the processing

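Of 114 alternative values, 81 kept their direction, their side of the test or a size near the reported one, and 33 did not (27 moved in size, 4 reversed, 1 lost its call and 1 gained one). The 81 include values whose size could not be counted as moved. Subtracting the mitochondrial level from both kinds of bins leaves their difference unchanged. With 2 libraries, each one lies within the SD of their mean. The number of CHG-poor bins was 675 at a threshold of 0.40%, 2485 at 0.50%, 4236 in 50 kb bins and 511 in 200 kb bins. The share with a CHG-poor neighbour was 44.6%, 60%, 48.1% and 64.8% in that order, 49.1% with at least 600 CHG sites and 65.5% with 1 bin between allowed. Bins called lower in CHH numbered 74 of 562 at 0.40% (1.19% of all bins), 64 of 3382 in 50 kb bins (0.296%), 307 of 450 in 200 kb bins (7.22%) and 982 by Fisher's exact test on summed reads, which called 27.5% of all bins. Those lower in CpG numbered 133 of 675 at 0.40% and 444 of 2483 at 0.50% (11.5% of all bins), 441 of 4222 in 50 kb bins (7.29%), 151 of 511 in 200 kb bins (16.9%) and 666 by Fisher's test (30.8% of all bins). Edges past the test numbered 3 at 0.50% (0.1% of all pairs), 0 with at least 600 sites (0.116%), 2 with bins shifted by 50 kb (0.148%), 5 in 200 kb bins (1.82%) and 201 by Fisher's test (22.9% of all pairs). Fisher's test takes reads as independent, so it calls more. In replicate 2 the CHH difference was -0.442 points as a mean within chromosomes, and the CpG difference -3.18 within quintiles of CpG density. In replicate 1 the CHH difference was -0.254 at 0.40% (standard error 0.461, p = 0.581, n = 314 CHG-poor bins). It was 3.26 with no upper depth limit (p = 0.183, n = 656 CHG-poor bins), where the chromosome 12 bin named above held 92.0% of the methylated reads of CHG-poor bins, which were at 0.678% without it. The CpG difference of replicate 1 was -1.18 at sites of at most 50 reads, -0.421 with no upper limit and -0.193 without the chromosome 8 bin, an alternative chosen after seeing the data. By Fisher's test its 1.98 points passed (p = 1.6e-10). The mean CHH difference of both libraries was -0.359 at 0.40%, and -0.752 to -0.458 with 1 library left out. Where no cause is given, it was not tested. In replicate 1 the median CHG-poor bin had 2 CHG sites, which limits its precision. No paired analysis was possible because the 2 libraries form 1 group.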
